A study of Homo sapiens with 5 samples.

Results

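MALAT1, NEAT1, GAS5, SNHG1, SNHG5, SNHG6, SNHG7, SNHG8 and SNHG12 are 9 long noncoding RNA genes that give nuclear architectural RNAs or host small nucleolar RNAs (snoRNAs) in their introns. They were taken by gene symbol from the deposited expression table, and they make up 9 of its 28442 gene rows. All 9 had a mean level of 5 CPM or more, the floor used for single-gene folds. CPM here is the expected count scaled to library size with the TMM method, which corrects for a few abundant RNAs that take up a share of the reads.

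The cells were TOV21G, a human cell line from a clear cell carcinoma of the ovary, in a study whose title ties ARID1A-mutated ovarian cancer to the deacetylase HDAC6. The shRNA experiment has a control hairpin (shControl) and a hairpin against HDAC6 (shHDAC6). The drug experiment has a Vehicle control and the HDAC6 inhibitors ACY1215 and CAY10603. Total RNA was sequenced from 1 library per treatment. The protocol lists puromycin selection for cells infected with the hairpin viruses. All 5 libraries share the cell line, and the sources used here give no doses, no exposure times and not which of the hairpins was sequenced.

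MALAT1 is an abundant RNA of nuclear speckles, the compartments that store splicing factors. NEAT1, its neighbour on chromosome 11, is the scaffold of paraspeckles, and its long isoform is required to build them. MALAT1 and the long NEAT1 isoform are cut by RNase P ahead of a tRNA-like structure, and their 3′ ends are protected by a triple helix in place of a poly(A) tail, whereas the short NEAT1 isoform is polyadenylated. GAS5 and the SNHG genes work differently: their introns are processed into snoRNAs, which guide the chemical modification of ribosomal RNA, while the spliced exons are exported and are often removed by nonsense-mediated decay. Several of these hosts begin with a pyrimidine-rich start shared with ribosomal protein mRNAs.

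The 3′ ends of MALAT1 and of long NEAT1 are shown because the protected end sets these transcripts apart from polyadenylated ones. The letters come from GENCODE 29 transcripts (GRCh38), bases 8260 to 8355 of 8708 in MALAT1 and bases 22646 to 22743 of 22743 in NEAT1. Capitals mark a pair of U-rich stretches, with T for U, and the A-rich stretch downstream of them.
MALAT1: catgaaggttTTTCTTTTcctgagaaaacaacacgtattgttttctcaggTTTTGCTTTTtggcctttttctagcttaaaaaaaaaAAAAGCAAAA
NEAT1: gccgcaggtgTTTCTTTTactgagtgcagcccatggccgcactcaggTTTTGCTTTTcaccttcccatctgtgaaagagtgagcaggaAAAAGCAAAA
The same 3 capital stretches, in this order and within 150 bases, were found in 2 of 206694 GENCODE 29 transcripts, 1 of each gene. The match describes the letters only, and the counts of these libraries do not resolve the ends of the RNAs.

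The libraries held between 43498805 and 57442767 counts, and a count was recorded for 18571 and 18719 genes in the hairpin libraries and for 21031 to 22189 genes in the drug experiment. The targeted HDAC6 transcript stood at 29.3 CPM in shHDAC6 against 49.0 CPM in shControl. It was at 50.1 CPM in Vehicle control, 32.9 CPM in ACY1215 and 47.9 CPM in CAY10603. The epithelial and clear cell genes KRT8, KRT18, PAX8, ANXA4 and EPCAM were present, whereas NAPSA, KRT7 and CDH1 stayed at or under 1.35 CPM in every library. EPCAM, an epithelial adhesion molecule, was at 29.4 CPM in ACY1215 and 58.5 CPM in Vehicle control, and the part of that in the ACY1215 folds was not tested. The 10 leukocyte, endothelial and fibroblast markers summed to 1.79 to 3.56 CPM, with CD3E and LUM at 0 counts in 3 libraries and PECAM1 in 2. In bulk RNA, fewer cells with a transcript and less of it per cell cannot be told apart.

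The 9 RNAs took between 0.396% of all counts, in CAY10603, and 0.861%, in ACY1215. MALAT1 alone gave 0.547% of counts in shControl, 0.374% in Vehicle control, 0.417% in shHDAC6, 0.790% in ACY1215 and 0.347% in CAY10603. Levels can be compared between genes only per length. On the authors' FPKM scale, averaged over the 5 libraries, MALAT1 stood highest at 580.4, ahead of GAS5 at 237, SNHG5 at 127, SNHG6 at 93.2 and SNHG8 at 50.9. SNHG7 at 40.2, SNHG1 at 28.1, SNHG12 at 23.4 and NEAT1 at 11.6 followed. Neighbours in the lower part of that order overlapped: SNHG8 spanned 38.87 to 67.28 FPKM, SNHG7 29.81 to 48.4 and SNHG1 22.95 to 38.75. The FPKM of NEAT1 was computed over a long transcript, since 1 FPKM corresponded to 2.53 times as many counts for NEAT1 as for MALAT1. Its short and long isoforms share 1 row and cannot be separated.

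**Figure D1:**
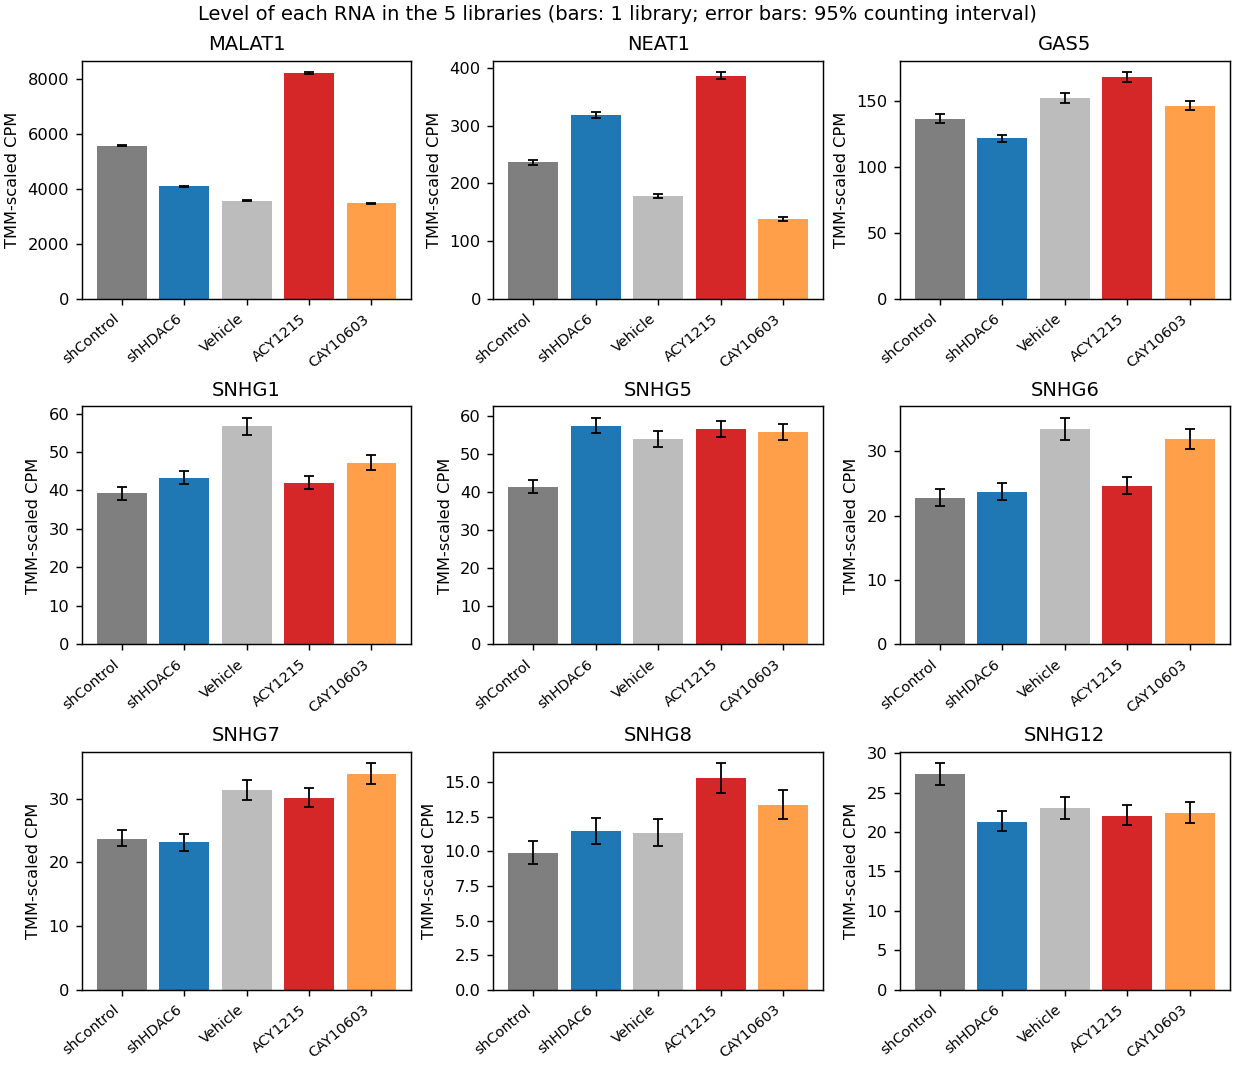
TMM-scaled CPM of each of the 9 RNAs (vertical axis, a scale of its own per panel) in the 5 libraries, with 95% Poisson counting intervals. MALAT1 and NEAT1 have their highest bars in ACY1215, at 8212 and 387 CPM, and their lowest in CAY10603, at 3484 and 138 CPM.

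MALAT1 and NEAT1 were the RNAs of the set that varied most. MALAT1 was at 5570.5 CPM in shControl, 4102 CPM in shHDAC6, 3578 CPM in Vehicle control, 8212 CPM in ACY1215 and 3484 CPM in CAY10603. NEAT1 was at 237 CPM in shControl, 318 CPM in shHDAC6, 178 CPM in Vehicle control, 387 CPM in ACY1215 and 138 CPM in CAY10603. Both were highest with ACY1215 and lowest with CAY10603, while the hairpin libraries were ordered the opposite way for the 2 RNAs. The highest library exceeded the lowest 2.36-fold for MALAT1 and 2.79-fold for NEAT1, beside a median of 1.36-fold over the 10740 genes above the floor. For the 7 hosts this ratio lay between 1.28-fold (SNHG12) and 1.54-fold (SNHG8).

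With ACY1215, MALAT1 was 2.30-fold as abundant as in Vehicle control, a log2 fold of 1.20 (95% counting interval 1.19 to 1.21). NEAT1 was 2.17-fold as abundant, a log2 fold of 1.12 (1.08 to 1.16). These were the only 2 of the 9 RNAs at least 1.5-fold higher in this pair, and both were also past 2-fold. None was 1.5-fold lower. Among all genes above the floor, 6.3% were at least 1.5-fold higher with ACY1215, 1.72% at least 2-fold higher and 7.39% at least 1.5-fold lower. With 1 library per treatment there is no replicate check, and the intervals cover counting error only. Against shControl in place of Vehicle control, the ACY1215 fold of MALAT1 was 0.56 on the log2 scale, under the 1.5-fold line, and that of NEAT1 was 0.71. SNHG8 then passed the line, at 0.62, so the count stayed at 2 with another RNA in it. On the FPKM scale the log2 folds against Vehicle control were 1.08 and 0.99.

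With CAY10603, MALAT1 was close to Vehicle control, at a log2 fold of -0.04 (-0.05 to -0.03). NEAT1 was lower by a log2 fold of -0.36 (-0.41 to -0.32). No RNA of the set was past 1.5-fold in this pair (0 higher, 0 lower), where 0.382% of all genes were higher and 0.652% lower. Against shControl in place of Vehicle control, CAY10603 had log2 folds of -0.68 for MALAT1 and -0.77 for NEAT1, and 2 of the 9 were then past 1.5-fold lower. The 2 inhibitors share the same Vehicle control library, so their folds are set side by side here and not related to each other. Directly between the drug libraries, MALAT1 was lower with CAY10603 than with ACY1215 by a log2 fold of -1.24 and NEAT1 by -1.48. They were again the only 2 of the 9 at least 1.5-fold lower, where 4.44% of all genes were, and 0 of the 9 were 1.5-fold higher, where 5.92% of all genes were. Doses and times of the inhibitors are not known here, so this difference cannot be assigned to the compounds at a matched dose.

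In the hairpin pair the 2 nuclear RNAs lay on opposite sides of the control. MALAT1 had a log2 fold of -0.44 (-0.45 to -0.43) in shHDAC6 against shControl and NEAT1 one of 0.43 (0.40 to 0.46). Neither passed 1.5-fold, and no RNA of the set did (0 higher, 0 lower), beside 2.58% of all genes higher and 2.52% lower. The ratio of MALAT1 to NEAT1 in FPKM was accordingly 59.7 in shControl and 32.5 in shHDAC6, and it was 50.9, 53.8 and 63.7 in Vehicle control, ACY1215 and CAY10603. Against Vehicle control in place of shControl, shHDAC6 had log2 folds of 0.20 for MALAT1, which turns its direction, and 0.84 for NEAT1.

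The 2 libraries without an HDAC6 intervention also differed. MALAT1 was higher in shControl than in Vehicle control by a log2 fold of 0.64 and NEAT1 by 0.41, so MALAT1 was 1 of 9 RNAs at least 1.5-fold higher there, beside 3.92% of all genes. None of the 9 was 1.5-fold lower, beside 3.16% of all genes. Under scaling by total count or by FPKM, 0 of the 9 were 1.5-fold higher and 2 were 1.5-fold lower in this pair. The distance between these controls was larger for MALAT1 than its distance between the hairpin libraries.

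**Figure D2:**
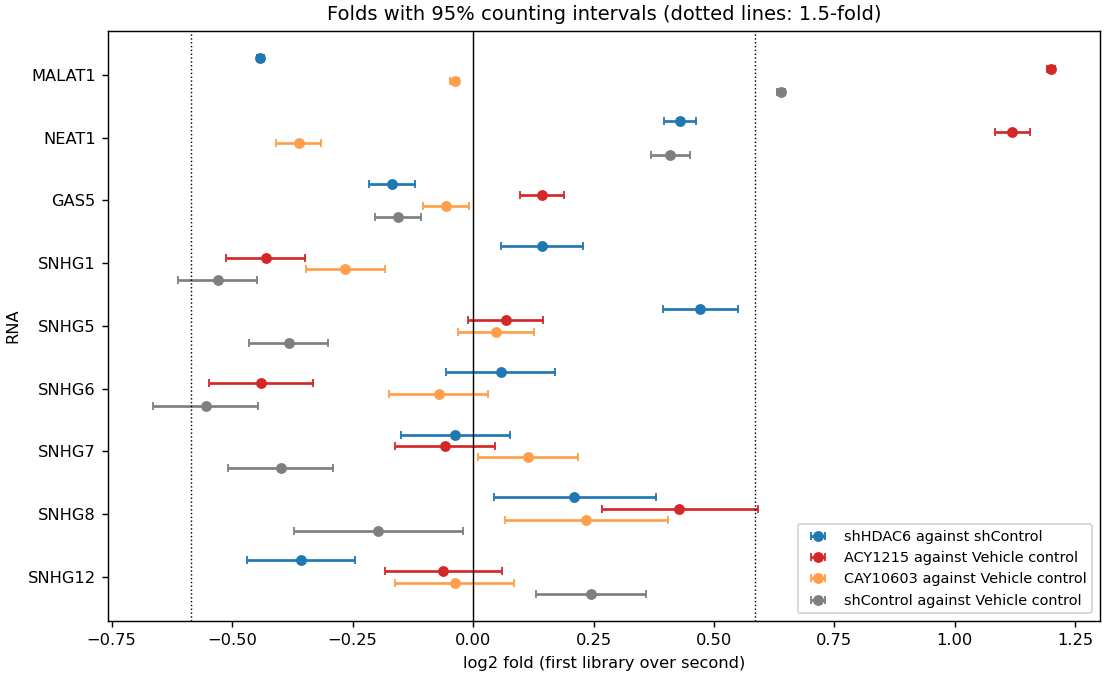
Log2 folds of the 9 RNAs in 4 pairs of libraries (horizontal axis), with 95% counting intervals and dotted lines at 1.5-fold in either direction. MALAT1 and NEAT1 stand at 1.20 and 1.12 with ACY1215, and the hosts stay between -0.55 and 0.47 in the pairs drawn.

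GAS5, the most abundant of the 7 hosts per length, varied little. It was at 137 CPM in shControl, 122 CPM in shHDAC6, 152 CPM in Vehicle control, 168 CPM in ACY1215 and 146 CPM in CAY10603. Its log2 folds against the control of each experiment were -0.17 with shHDAC6, 0.14 with ACY1215 and -0.06 with CAY10603. With the control of the other experiment they were -0.32, 0.30 and 0.10, the last turned in direction. Its highest library exceeded its lowest 1.38-fold, near the median gene.

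SNHG1, host of a row of C/D box snoRNAs, was at 39.2 CPM in shControl, 43.3 CPM in shHDAC6, 56.7 CPM in Vehicle control, 42.0 CPM in ACY1215 and 47.1 CPM in CAY10603. Vehicle control was the highest of the 5. Its log2 fold was 0.14 (0.06 to 0.23) with shHDAC6, -0.43 (-0.51 to -0.35) with ACY1215 and -0.27 (-0.35 to -0.18) with CAY10603, so the hairpin lay above its control and the inhibitors below theirs. Against shControl in place of Vehicle control the ACY1215 fold was 0.10 and the CAY10603 fold 0.26, both turned in direction. On the FPKM scale the ACY1215 fold against Vehicle control was -0.64, past 1.5-fold.

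SNHG6, host of SNORD87, was at 22.8 CPM in shControl, 23.7 CPM in shHDAC6, 33.5 CPM in Vehicle control, 24.7 CPM in ACY1215 and 31.9 CPM in CAY10603. ACY1215 thus sat with the hairpin libraries and CAY10603 near its vehicle. The log2 fold was -0.44 (-0.55 to -0.33) with ACY1215, and the counting intervals of the shHDAC6 fold of 0.06 and the CAY10603 fold of -0.07 spanned 0. With the control of the other experiment these folds turned in direction, to 0.12 with ACY1215, -0.50 with shHDAC6 and 0.48 with CAY10603. SNHG7, a host of H/ACA box snoRNAs, was at 23.8 CPM in shControl, 23.2 CPM in shHDAC6, 31.3 CPM in Vehicle control, 30.1 CPM in ACY1215 and 33.9 CPM in CAY10603. Its log2 folds were -0.04, -0.06 and 0.11 over shHDAC6, ACY1215 and CAY10603, and only the interval of the last left out 0. With the control of the other experiment they were -0.44, 0.34 and 0.51.

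SNHG5, host of the SNORD50 pair, was at 41.5 CPM in shControl, 57.5 CPM in shHDAC6, 54.1 CPM in Vehicle control, 56.7 CPM in ACY1215 and 55.9 CPM in CAY10603. Only shControl stood apart, below the 4 other libraries. The shHDAC6 fold of 0.47 (0.39 to 0.55) was 0.09 when taken against Vehicle control, and the inhibitor folds of 0.07 and 0.05, whose intervals spanned 0, were 0.45 and 0.43 against shControl. SNHG8, host of SNORA24, was at 9.89 CPM in shControl, 11.5 CPM in shHDAC6, 11.3 CPM in Vehicle control, 15.3 CPM in ACY1215 and 13.3 CPM in CAY10603. Its counting interval lay above 0 with each intervention, at log2 folds of 0.21, 0.43 and 0.23. The share of all genes for which this holds was not computed, and the inhibitor folds share the Vehicle control library. On the FPKM scale the SNHG8 fold of shHDAC6 against shControl was -0.03 (38.87 against 39.58 FPKM), turned in direction. Against Vehicle control the shHDAC6 fold of SNHG8 was 0.01, and against shControl the CAY10603 fold was 0.43.

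SNHG12, host of 3 H/ACA snoRNAs and a C/D snoRNA, showed the narrowest range. It was at 27.3 CPM in shControl, 21.3 CPM in shHDAC6, 23.1 CPM in Vehicle control, 22.1 CPM in ACY1215 and 22.5 CPM in CAY10603. Again shControl was the library apart, this time above the others. The log2 fold was -0.36 (-0.47 to -0.25) with shHDAC6 and -0.06 and -0.04 with the inhibitors, whose intervals spanned 0. With the control of the other experiment they were -0.11, -0.31 and -0.28.

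The 7 hosts did not move as a block. Their summed level was 301 CPM in shControl and 302 CPM in shHDAC6, and 362, 359 and 351 CPM in Vehicle control, ACY1215 and CAY10603. The median log2 fold of the 7 hosts was 0.06 with shHDAC6, -0.06 with ACY1215 and -0.04 with CAY10603. Over the 9 RNAs it was 0.06, 0.07 and -0.04, beside -0.02, 0.02 and 0.02 over all genes. GAS5, SNHG6 and SNHG7, 3 of the 9, were lower in both hairpin libraries than in each library of the drug experiment. Of all genes above the floor, 10.8% showed that order. None of the 9 showed the reverse order, beside 20.8% of all genes. Hairpin libraries and drug libraries also differed in the number of genes with a count, given above, and the part of that in this order was not tested. In shControl against Vehicle control, 1 of 7 hosts lay above 0, with a median of -0.38 over the hosts beside 0.07 over all genes.

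**Figure D3:**
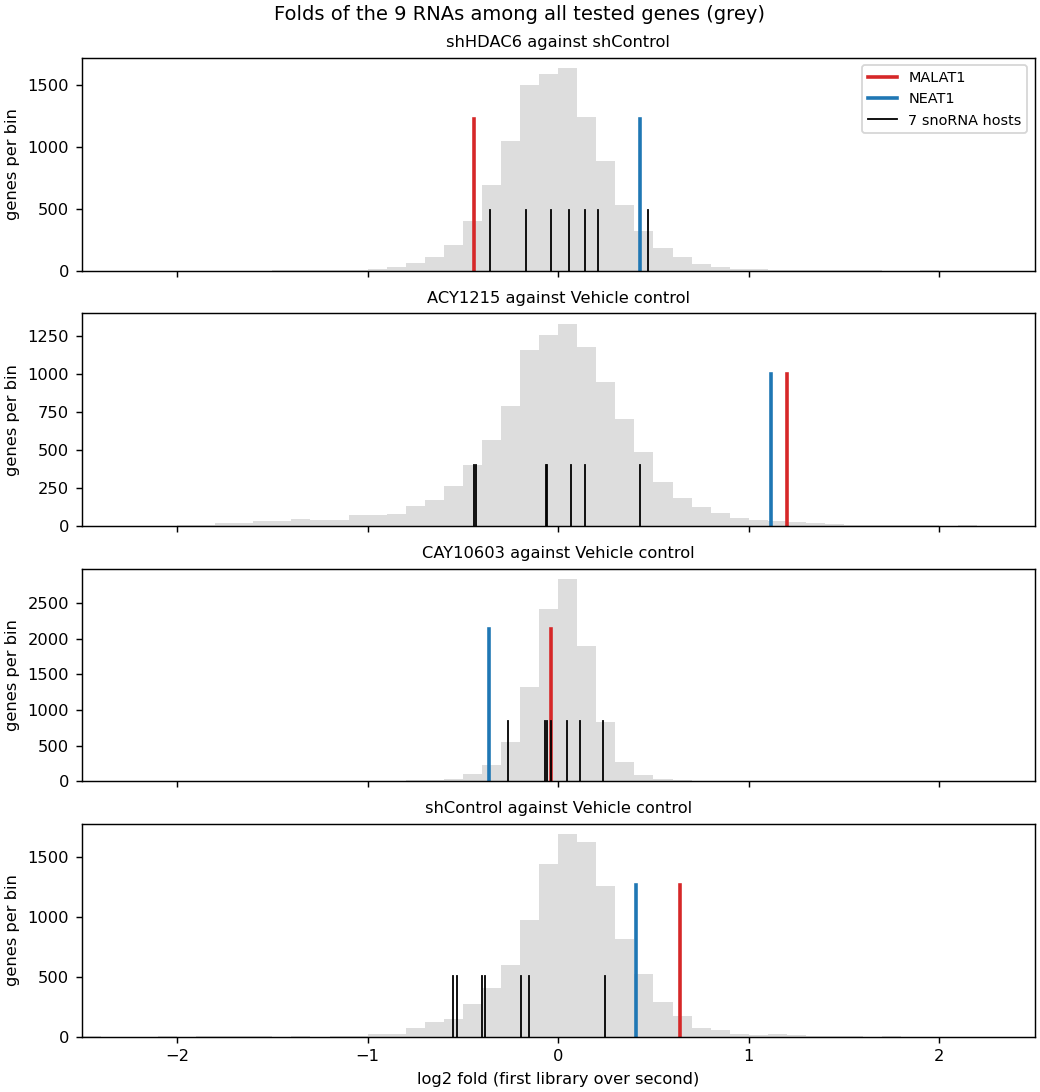
Histograms of log2 folds of the 10740 genes above the floor of 5 CPM (vertical axis, genes per bin of the log2 fold) in 4 pairs, with the 9 RNAs as lines. With ACY1215, MALAT1 at 1.20 and NEAT1 at 1.12 lie in the right tail while the 7 hosts stay between -0.44 and 0.43.

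Over all libraries, the 3 of repressed HDAC6 were compared with the 2 controls in 1 fit with edgeR's quasi-likelihood test and experiment type as a covariate. No label speaks of repeated cultures and each intervention is a treatment of its own, so the p-values measure only the spread between these libraries. None of the 9 RNAs and none of the 13449 genes tested was called at a Benjamini-Hochberg adjusted p under 0.05 (0% of genes, 0 of 9 RNAs). Before adjustment, p fell under 0.05 for 102 genes with edgeR, 112 with DESeq2 and 126 with limma-voom, with 0 of the 9 RNAs by each tool. MALAT1 had a fitted log2 fold of 0.20 with an SE of 0.46, and NEAT1 one of 0.50 with an SE of 0.40. Among the hosts the largest was SNHG8 at 0.28 (SE 0.18), followed by SNHG5 at 0.23 (SE 0.15), and SNHG7 stood at 0.00 (SE 0.15). Of the folds named here, those of MALAT1 and SNHG7 were smaller than their errors and the others were less than 2 SE from 0. Without Vehicle control the MALAT1 fold was -0.43 and without ACY1215 it was -0.23, so its direction rests on single libraries. NEAT1 was at 0.04 without ACY1215. SNHG5 ranged from 0.0727, without either hairpin library, to 0.49, without Vehicle control.

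The table has rows for 28 listed snoRNAs in introns of the 7 hosts. All 28 lie inside the interval of their host in RefSeq. At 0 counts in all 5 libraries were 11 rows, and another 11 reached at least 10 counts in 1 library or more. Mature snoRNAs are short, and a row of a snoRNA can also hold reads of the unspliced host, which these counts cannot tell apart. FPKM listed 0 for SNORD76 and SNORD87 in libraries where they had at least 334 and 319 counts, so folds of snoRNA rows are taken from counts. The H/ACA rows and SNORD22 did have FPKM. In shHDAC6 against shControl, SNORA61 had 193.98 against 17.64 FPKM and SNORA44 390.8 against 304.1. SNORA43 had 136.61 against 49.02 FPKM and SNORA24 346.13 against 673.47. SNORA44 had 390.8 FPKM at 5.41 CPM in shHDAC6, but 583.4 FPKM at 5.03 CPM in ACY1215. The 2 scales thus related differently in shHDAC6, and the cause was not tested.

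SNORA61, an H/ACA box snoRNA in SNHG12, had 8 counts in shControl, 132 in shHDAC6, 29 in Vehicle control, 58 in ACY1215 and 49 in CAY10603. The shHDAC6 library was the highest and shControl the lowest. The log2 fold in the hairpin pair was 3.82 (3.13 to 5.39), while the host SNHG12 had -0.36. SNORA44, in another intron of SNHG12, had 151 counts in shControl, 284 in shHDAC6, 176 in Vehicle control, 264 in ACY1215 and 203 in CAY10603. Its fold in the hairpin pair was 1.00 (0.73 to 1.31).

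SNORA43, in SNHG7, had 26 counts in shControl, 106 in shHDAC6, 23 in Vehicle control, 51 in ACY1215 and 62 in CAY10603. Its fold in the hairpin pair was 2.04 (1.5 to 2.81), beside -0.04 for SNHG7. It has a close relative in the same host, SNORA17, and reads could be split between their rows. SNORA16A, the remaining H/ACA snoRNA of SNHG12, had 6 counts in shControl and 24 in shHDAC6, a fold of 1.77 (0.78 to 3.68).

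SNORA61 and SNORA44, which share the host SNHG12 and had over 100 counts in shHDAC6, are shown with their sequences, from GENCODE 29. Capitals mark letters of the H box (ANANNA, the match nearest the middle) and of the ACA box (ANA, 3 bases before the 3′ end). These boxes define this class and are bound by the dyskerin complex. The hinge was not located from structure, so the marked H box is a match of letters only.
SNORA61: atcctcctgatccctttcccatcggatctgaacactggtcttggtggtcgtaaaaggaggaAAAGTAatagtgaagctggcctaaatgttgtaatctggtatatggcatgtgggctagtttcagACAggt
SNORA44: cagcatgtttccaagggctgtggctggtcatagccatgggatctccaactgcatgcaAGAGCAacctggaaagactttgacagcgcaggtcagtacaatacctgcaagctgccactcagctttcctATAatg
Both carry the 2 boxes under these rules, and SNORA44 has ATA in the place of the ACA box.

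Higher counts of H/ACA rows in shHDAC6 than in shControl were not limited to these hosts. Of 44 other SNORA rows with at least 10 counts in a library, 41 lay above 0 in the hairpin pair, beside 47.1% of all genes above the floor. Their median log2 fold was 1.36. These are folds of counts, and the FPKM of these rows was not examined. A row could pass the minimum of 10 counts through shHDAC6 alone, which favours a place above 0 in this pair. How many rows did so was not counted. The rows also did not have to pass the floor of 5 CPM used for all genes. The 23 other SNORD rows had a median of -0.29. In shControl against Vehicle control the SNORA rows had a median of -0.60. With ACY1215 and CAY10603 their medians were 0.09 and 0.12. The higher SNORA counts in shHDAC6 thus stood beside low SNORA counts in shControl.

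The C/D box snoRNAs and SNORA24 had no shared direction in the hairpin pair. SNORD22, in SNHG1, had 39 counts in shControl, 84 in shHDAC6, 28 in Vehicle control, 50 in ACY1215 and 34 in CAY10603. Its log2 fold of counts was 1.17 (0.65 to 1.80) in the hairpin pair beside 0.14 for SNHG1. On the FPKM scale SNORD22 had 142.65 in shHDAC6 against 98.53 in shControl, a smaller difference. SNORD87, in SNHG6, had 491 counts in shControl, 330 in shHDAC6, 501 in Vehicle control, 319 in ACY1215 and 657 in CAY10603. Its log2 fold was -0.47 with shHDAC6 and -0.86 with ACY1215, where SNHG6 had 0.06 and -0.44. It was highest with CAY10603. SNORA24, in SNHG8, had 325 counts in shControl, 244 in shHDAC6, 209 in Vehicle control, 336 in ACY1215 and 363 in CAY10603, and it was the 1 H/ACA row of the 5 that was lower in the hairpin pair (-0.31). SNORD76, in GAS5, had log2 folds of 0.30, -0.02 and 0.64 over the 3 interventions, beside -0.17, 0.14 and -0.06 for GAS5. All 11 rows lay above 0 with CAY10603, and 8 of 11 did with shHDAC6 and with ACY1215. Of all genes above the floor, 55.9%, 47.1% and 51.7% did in these 3 pairs. The snoRNA rows did not have to pass that floor, and only 3 of the 28 did, so the shares rest on unlike thresholds. SNORD28, 1 of the 11 rows, had 7 counts in shControl and 7 in Vehicle control, under the minimum count for these rows. It was kept through its 16 counts in shHDAC6, 13 in ACY1215 and 11 in CAY10603. For this row the minimum count favours a place above 0 in the 3 pairs. The counting interval lay above 0 for 4 of the 11 rows with CAY10603, 6 with shHDAC6 and 4 with ACY1215. With CAY10603, 25 of the 44 other SNORA rows and 13 of the 23 other SNORD rows lay above 0.

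**Figure D4:**
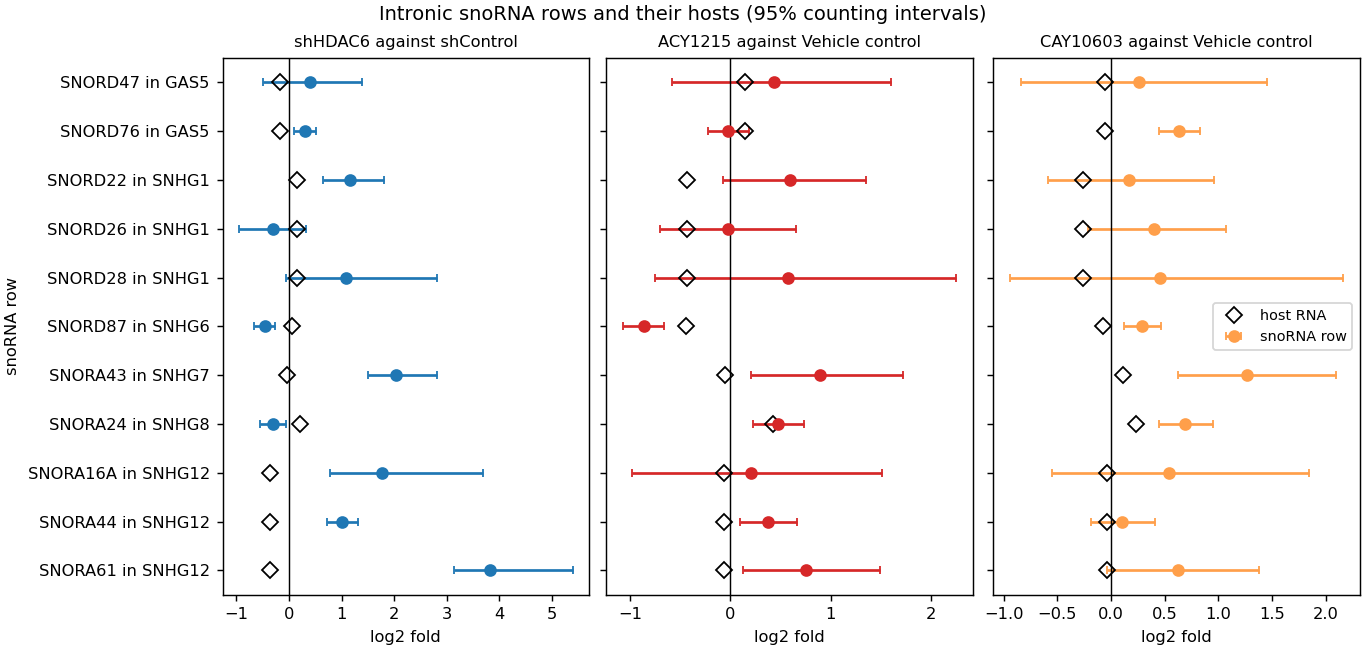
Log2 folds of the 11 intronic snoRNA rows with at least 10 counts in a library (filled points, 95% counting intervals) and of their host RNAs (open diamonds), in 3 panels with a horizontal axis each. In the hairpin pair, SNORA61 at 3.82 and SNORA43 at 2.04 lie far from their hosts at -0.36 and -0.04.

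Windows of 300 bases around gene starts in the RefSeq table (GRCh38.p14) matched 7 of the 9 genes with 8 windows, MALAT1 having 2. NEAT1 and SNHG6 had no entry. The letters TATAA on the gene's strand, lying wholly within the stretch 16 to 40 bases before the start, were in 5 of the 8 windows and in 3.91% of 35116 windows. Over the whole window and both strands TATAA was in 6 of 8 windows against 20.4% of all, CCAAT in 2 against 34.6%, CACGTG in 1 against 7.26% and CGCATGCG in 2 against 2.02%. 1 window of MALAT1 and those of SNHG5 and SNHG12, the hosts with the highest and the lowest fold in the hairpin pair, are shown with TATAA in capitals.
MALAT1, chr11:65498795-65499094, plus strand: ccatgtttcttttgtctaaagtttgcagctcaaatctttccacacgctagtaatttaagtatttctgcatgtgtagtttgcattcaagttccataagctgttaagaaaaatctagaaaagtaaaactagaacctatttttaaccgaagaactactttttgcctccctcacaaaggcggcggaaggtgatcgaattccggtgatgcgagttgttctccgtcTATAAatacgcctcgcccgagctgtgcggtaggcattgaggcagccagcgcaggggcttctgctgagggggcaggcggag
SNHG5, chr6:85678684-85678983, minus strand: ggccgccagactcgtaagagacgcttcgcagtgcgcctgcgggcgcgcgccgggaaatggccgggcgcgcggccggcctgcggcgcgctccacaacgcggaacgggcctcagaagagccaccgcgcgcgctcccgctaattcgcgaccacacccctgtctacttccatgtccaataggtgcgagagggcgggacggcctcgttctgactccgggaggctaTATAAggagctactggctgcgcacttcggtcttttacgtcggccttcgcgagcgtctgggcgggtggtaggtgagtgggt
SNHG12, chr1:28581824-28582123, minus strand: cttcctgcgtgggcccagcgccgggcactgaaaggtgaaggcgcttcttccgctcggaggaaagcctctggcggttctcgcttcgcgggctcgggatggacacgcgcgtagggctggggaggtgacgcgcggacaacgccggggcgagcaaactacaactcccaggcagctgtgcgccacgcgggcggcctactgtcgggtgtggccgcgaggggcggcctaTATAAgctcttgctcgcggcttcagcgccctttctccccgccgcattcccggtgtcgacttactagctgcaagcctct
TATAA begins 30 bases before the start in SNHG5 and in the MALAT1 window shown, and 28 bases before it in SNHG12. The other MALAT1 start has no TATAA in that position. The hosts at opposite ends of the hairpin pair share it. A match of letters is a description, not a binding site.

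Genes of proteins that work with these RNAs were counted by list. Of 17 paraspeckle proteins above the floor, 3 were at least 1.5-fold lower in shHDAC6 than in shControl, where 2.52% of all genes were, and 0 were higher, where 2.58% were. The median of the list was -0.08 beside -0.02 over all genes. The largest folds were those of TAF15 (16.3 against 34.1 CPM, log2 fold -1.06) and HNRNPH3 (38.7 against 68.0 CPM, -0.81), both RNA-binding proteins. HNRNPA1, a splicing repressor with near-identical pseudogene copies that could share its reads, was the other, at 1131 against 1840.0 CPM. TAF15 in shControl was itself 0.79 above Vehicle control on the log2 scale. With ACY1215, where NEAT1 was highest, 0 of 17 were past 1.5-fold, where 6.3% of all genes were higher and 7.39% lower. PSPC1, a core paraspeckle protein, was at -0.53 and TAF15 at 0.52.

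Among 16 nuclear speckle proteins, SRSF11 was the 1 past 1.5-fold in the hairpin pair (-0.65), and 0 were with either inhibitor. Of all genes above the floor, 2.58% were at least 1.5-fold higher and 2.52% lower with shHDAC6. The shares were 6.3% and 7.39% with ACY1215, and 0.382% and 0.652% with CAY10603. Lists of 10 to 16 genes are too short to be set apart from such shares. Of 12 genes for processing the 3′ ends of MALAT1 and NEAT1, 0 were past 1.5-fold in any of the 3 pairs. NUDT21, a subunit of the cleavage factor that acts on the short NEAT1 isoform, had -0.46 with ACY1215. The 16 nonsense-mediated decay factors had medians of -0.14, -0.08 and 0.11 with shHDAC6, ACY1215 and CAY10603, with SMG9 the 1 past 1.5-fold (-0.63 with ACY1215). All 10 snoRNP proteins above the floor stayed within 1.5-fold in the 3 pairs, and FBL, the methyltransferase of C/D snoRNPs, had 0.30 with shHDAC6. None of these lists had a gene called in the fit over all libraries.

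Other snoRNA hosts and nuclear long noncoding RNAs gave a background for the 9. With ACY1215, 2 of 8 other hosts were at least 1.5-fold higher, where 6.3% of all genes were. They were SNHG16 (224 against 140.4 CPM, log2 fold 0.68) and DANCR (31.7 against 20.9 CPM, 0.60). With shHDAC6, 1 of 8 was at least 1.5-fold higher, SNHG10 (11.3 against 6.91 CPM, 0.71), where 2.58% of all genes were. Of 9 other regulatory RNAs, 1 was at least 1.5-fold higher with ACY1215 and 1 lower, where 6.3% and 7.39% of all genes were. The higher one was MIR22HG, a microRNA host, at 20.4 against 13.5 CPM (log2 fold 0.59). The lower one, KCNQ1OT1, an imprinted antisense RNA, stood at 725 CPM in Vehicle control, 274 CPM in ACY1215 and 376 CPM in CAY10603. In shHDAC6 it was at 88.5 CPM and in shControl at 92.9 CPM. The hairpin libraries lay far below the drug libraries for this RNA.

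The genes with the pattern most like each of MALAT1, NEAT1 and GAS5 were ranked by the root mean square difference of mean-centred log2 CPM over the 5 libraries. Nearest to MALAT1 were the clone row BC010924 (0.066), MICA (0.087), a stress-induced ligand of natural killer cells, and FAM214B (0.101). Whether the clone row shares reads with MALAT1 was not tested. MICA was at 86.1 CPM in shControl, 70.1 CPM in shHDAC6, 65.2 CPM in Vehicle control, 137 CPM in ACY1215 and 63.2 CPM in CAY10603. Nearest to NEAT1 were GPRIN1 (0.164), AK055197 (0.176) and ADAMTS7 (0.191), all of low level. Nearest to GAS5 were DNAL1 (0.020), RPL15 (0.023), a ribosomal protein of the large subunit, and RHBDD1 (0.028). MALAT1 and NEAT1 themselves differed by 0.339, and 946 of the 10740 genes were nearer to MALAT1 than NEAT1 was. With 5 libraries this ranking is a description of those libraries.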

How the data were processed

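RNA of 5 TOV21G libraries was isolated with Trizol and made into strand-specific libraries, per the labels' protocols. The authors deposited expected counts, already whole numbers, and FPKM in 1 table, per the file headers. RSEM 1.2.3, edgeR with no version and hg19 are named in the submitters' processing notes. The strand setting of the counting is not given in the sources used here, so overlapping antisense genes cannot be told apart. The DMSO column was read as Vehicle control, and columns of unknown samples numbered 0. Rows without a symbol were left out, and a few listed markers and 1 sequence are not reported here.

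For single pairs, CPM was scaled with TMM, 2 counts were added as a prior before folds were taken, and genes averaging 5 CPM or more were kept, and the counting intervals are exact at 95% (Poisson for levels, binomial for folds). FPKM folds, an alternative, used log2(FPKM + 0.1). With 1 library per treatment, pairs carry no test. The fit over all libraries used edgeR 4.0.16 in R 4.3.3 (robust quasi-likelihood test, Benjamini-Hochberg over all genes, at least 1 CPM in at least 2 libraries, 2 residual degrees of freedom), with DESeq2 1.42.0 and limma 3.58.1 as alternatives. On simulated data for that comparison with 13285 genes, the fit found 74% of planted 2-fold and 97% of planted 4-fold differences and made 22 false calls. Planted folds were the same in every library of repressed HDAC6, and no difference between the experiments was simulated. The shares found therefore do not describe RNAs whose folds differ between interventions, as those of MALAT1 did.

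The 9 genes and the lists were chosen with earlier results of these data known. Named were all 9 genes, HDAC6, from each list the 2 genes with the largest fold in each pair, and the 3 genes nearest in pattern to MALAT1, NEAT1 and GAS5. Chosen after values or sequences were seen were the minimum of 10 counts for snoRNA rows, the other SNORA and SNORD rows as a background, HNRNPA1, the snoRNAs described, the order of hairpin against drug libraries, and the sequences and motifs shown. Alternatives were the control of the other experiment, total-count scaling, FPKM, a prior count of 0.5, a 2-fold line, other tools and leaving out each library.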

Additional observations from a re-analysis of the deposited data

Results flagged for a closer look

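SNHG1 lay on opposite sides of its own control in the 2 experiments. Its log2 fold was 0.14 with shHDAC6 against shControl, -0.43 with ACY1215 and -0.27 with CAY10603 against the shared Vehicle control. With 1 library per treatment the difference between the experiments was not tested. Vehicle control had the highest SNHG1 level of the 5 libraries, at 56.7 CPM.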

How the results depend on the processing

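No paired analysis was possible because the labels carry no replicate numbers and each treatment has 1 library. Counts of the 9 RNAs past 1.5-fold and their medians moved as follows. With shHDAC6, FPKM gave a median log2 fold of -0.0699, and Vehicle control as the control gave a median of -0.11 and 1 RNA higher. With ACY1215, total-count scaling gave a median of -0.0509, FPKM gave 1 RNA lower, and shControl as the control gave a median of 0.34. With CAY10603, shControl as the control gave 2 RNAs lower and a median of 0.26. For shControl against Vehicle control, 0 RNAs were 2-fold higher. There, total-count scaling gave 0 higher, 2 lower and a median of -0.28, and FPKM gave 0 higher, 2 lower and a median of -0.35. The other 98 values of this kind moved less.

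In the fit over all libraries, leaving out 1 library at a time gave 0 to 1 genes called (1 without Vehicle control) and 0 of the 9 RNAs. The fitted log2 folds then ranged from -0.43 to 0.73 for MALAT1, 0.04 to 0.77 for NEAT1, 0.07 to 0.49 for SNHG5, 0.23 to 0.35 for SNHG8, -0.34 to -0.03 for SNHG12, -0.15 to 0.0621 for GAS5, -0.33 to 0.16 for SNHG1, -0.23 to 0.072 for SNHG6 and -0.0475 to 0.0457 for SNHG7. SNHG7 turned to -0.00074 with DESeq2, and GAS5 to 0.0088 without the covariate. Of values of single RNAs, 261 stayed, 71 moved and 10 reversed. The cause was not tested. Counting error is small at this depth beside most folds of MALAT1 and NEAT1, and the spread between cultures was not analysed here.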
